A study of Mus musculus with 2 samples.

Results

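The genes described here are 10 transcription factor genes of the secretory lineage of the intestine (Atoh1, Spdef, Gfi1, Creb3l1, Neurog3, Neurod1, Insm1, Fev, Pax4 and Rfx6), chosen by name, and all 10 were among the 17809 genes of the wild-type colon table. They were followed across the 3008 of 7495 cells that had an Epcam value of at least 5, Epcam being a surface protein of epithelial cells. The cells came from C57BL/6 mice, 3 females of 8 to 12 weeks pooled into 1 droplet library, in which sorted epithelial and non-epithelial cells without CD45 were mixed in equal parts, so that shares of cells here are not those of the tissue. A second library, from 3 female Pdgfra-H2B-eGFP mice, held mesenchymal cells sorted for GFP, in which a nuclear green protein marks cells that use the Pdgfra promoter. Cells could not be assigned to mice, so there is no replicate, no test across mice and no p-value, and every 95% interval (exact Clopper-Pearson) covers the counting of cells only. The libraries shared 1 barcode, and doublets were not removed.

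Secretory cells of the intestine arise where Notch signaling is low, a state that allows expression of Atoh1, the basic helix-loop-helix factor that opens the secretory fate. Gfi1 acts downstream of Atoh1, and Spdef and Creb3l1 are linked to the maturation of goblet cells, which make mucus. Neurog3 is switched on briefly in endocrine precursors and is followed by Neurod1, Insm1, Pax4, Rfx6 and Fev in enteroendocrine cells, which release hormones and serotonin.

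Values are corrected counts, that is UMI counts that the authors adjusted to a common depth per cell with SCTransform, and a level below is the mean corrected count per cell. Cells were gated in a fixed order. The gate Chgb-high (Chgb of at least 10, 70 cells) holds a granule protein of endocrine cells, Reg4-high (Reg4 of at least 10, 317 cells) a secreted lectin of deep crypt secretory cells, and Muc2-high (Muc2 of at least 30, 486 cells) the main mucin of goblet cells. Reg4 was also at 10 or more in 18 of the 70 Chgb-high cells, which the order of the gates kept out of the Reg4-high gate. A dividing gate (a sum of at least 10 over 10 division genes such as Mki67 and Top2a, 295 cells) and the remaining 1840 cells followed. Median genes per cell lay between 3038 in the remaining and 3764 in the Chgb-high cells. The labels of the gates were set beside marker lists. These lists include gate genes, Muc2 among the goblet and Chgb among the endocrine markers, so the sums are in part fixed by the gates. Muc2 alone had a mean of 288 in the Muc2-high cells, and Chgb alone had 281 in the Chgb-high cells. All 8 goblet markers were above 0 in at least 10% of the Reg4-high and of the Muc2-high cells, with a mean sum of 435 and 706, against 20.9 in the Chgb-high, 18.3 in the dividing and 14.4 in the remaining cells. The 10 endocrine markers, 7 of them above 0 in at least 10% of the Chgb-high cells, summed to a mean of 584 in the Chgb-high cells, and no cell of that gate was below 40. Their mean sum was 121 in the Reg4-high cells, with a median of 0 and a highest cell of 7090, 9.31 in the remaining cells (highest 6632), 0.453 in the Muc2-high and 0.315 in the dividing cells, so some cells with endocrine markers lay outside the Chgb-high gate. The 8 enterocyte markers had a mean sum of 76.3 in the remaining gate and of 12.2 to 22.5 in the others, but the median of the remaining gate was 10, against 12 in the Chgb-high, 11 in the Reg4-high and 15 in the Muc2-high cells, so a minority of its cells carried the mean. Tuft cell markers had a mean sum of at most 0.230 in the 5 gates, but the highest cell, in the remaining gate, had a sum of 73. Fibroblast markers had a mean sum of 2.00 to 7.68 over the 5 gates, against 167 in cells below the Epcam minimum with Col1a1 of at least 5.

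Atoh1 (chr6:64729125-64731245, plus strand, GRCm38, a gene of 1 exon) was above 0 in 209 of 317 Reg4-high cells (65.9%, 95% interval 60.4 to 71.1) and in 288 of 486 Muc2-high cells (59.3%, 54.7 to 63.7). Its share was 4.41% in the dividing, 3.42% in the remaining and 4.29% in the Chgb-high cells. Mean levels were 2.58 in the Reg4-high cells (highest cell 16), 1.87 in the Muc2-high (highest 13), 0.139 in the dividing, 0.0734 in the remaining and 0.186 in the Chgb-high cells. Most cells with Atoh1 thus lay in the mucus-making gates, 209 and 288 of 576 epithelial cells above 0, while the interval of the Chgb-high cells (0.893 to 12.0) overlapped those of the dividing and remaining cells. In Col1a1-positive cells below the Epcam minimum, which should lack the gene, 0.570% were above 0 at a median of 2645.5 genes per cell.

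Spdef (chr17:27714352-27728955, minus strand), an ETS factor of goblet maturation, was above 0 in 84.4% of the Muc2-high (80.8 to 87.5) and 76.0% of the Reg4-high cells (70.9 to 80.6). The mean was 4.55 in the Muc2-high cells, with a median of 4 and a highest cell of 24, and 1.66 in the Reg4-high cells, with a median of 1 and a highest cell of 12. The other gates had means of 0.114 (Chgb-high), 0.142 (dividing) and 0.0745 (remaining). Gfi1 (chr5:107716657-107726036, minus strand), a zinc finger repressor, was sparse, with 24.7% of the Muc2-high (20.9 to 28.8) and 23.0% of the Reg4-high cells (18.5 to 28.1) above 0 and no cell above 3. Only 1.43% of the Chgb-high, 2.37% of the dividing and 1.09% of the remaining cells had a value for it. The background in Col1a1-positive cells was 0.696% for Spdef and 0.0316% for Gfi1.

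Creb3l1 (chr2:91982328-92024502, minus strand), a membrane-bound factor of the secretory apparatus, was also highest in the Muc2-high and Reg4-high cells but was not limited to them. Its mean was 5.52 in the Muc2-high, 3.24 in the Reg4-high, 1.37 in the Chgb-high, 1.31 in the dividing and 0.879 in the remaining cells, and 93.4% of the cells of both mucus-making gates were above 0. The Chgb-high (64.3%, 51.9 to 75.4) and dividing cells (177 of 295, 54.2 to 65.6%) overlapped in their intervals. It was also frequent outside the epithelium, above 0 in 36.1% of the Col1a1-positive cells below the Epcam minimum (mean 0.541) against 6.61% of those with Pecam1 of at least 3.

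The 5 endocrine factors had the opposite distribution. Neurod1 (chr2:79452521-79456751, minus strand), a helix-loop-helix factor, was above 0 in 65 of 70 Chgb-high cells (92.9%, 84.1 to 97.6), with a mean of 6.53, a median of 5 and a highest cell of 37. It was above 0 in 3.47% of the Reg4-high, 0.412% of the Muc2-high, 0.678% of the dividing and 0.380% of the remaining cells. Insm1 (chr2:146221921-146225020, plus strand), a zinc finger factor of neuroendocrine cells, reached the same 92.9% of Chgb-high cells, with a mean of 5.43 and a highest cell of 33, and at most 3.15% in the other gates. Fev (chr1:74881509-74885419, minus strand), an ETS factor of serotonin-making cells, was above 0 in 78.6% of the Chgb-high cells (67.1 to 87.5) with a mean of 2.19, and in 0 of 486 Muc2-high cells, which allows a share of up to 0.617%. Rfx6 (chr10:51677756-51730432, plus strand) was above 0 in 35.7% (24.6 to 48.1) and Pax4 (chr6:28442334-28449353, minus strand), a paired-box factor, in 34.3% (23.3 to 46.6) of the Chgb-high cells, with means of 0.514 and 0.571. Of 27 epithelial cells with Pax4, 24 were Chgb-high and 3 Reg4-high. In the remaining gate Pax4 was above 0 in 0 of 1840 cells, which allows up to 0.163%. In Col1a1-positive cells each of these 5 genes was above 0 in at most 0.0949%.

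**Figure D1:**
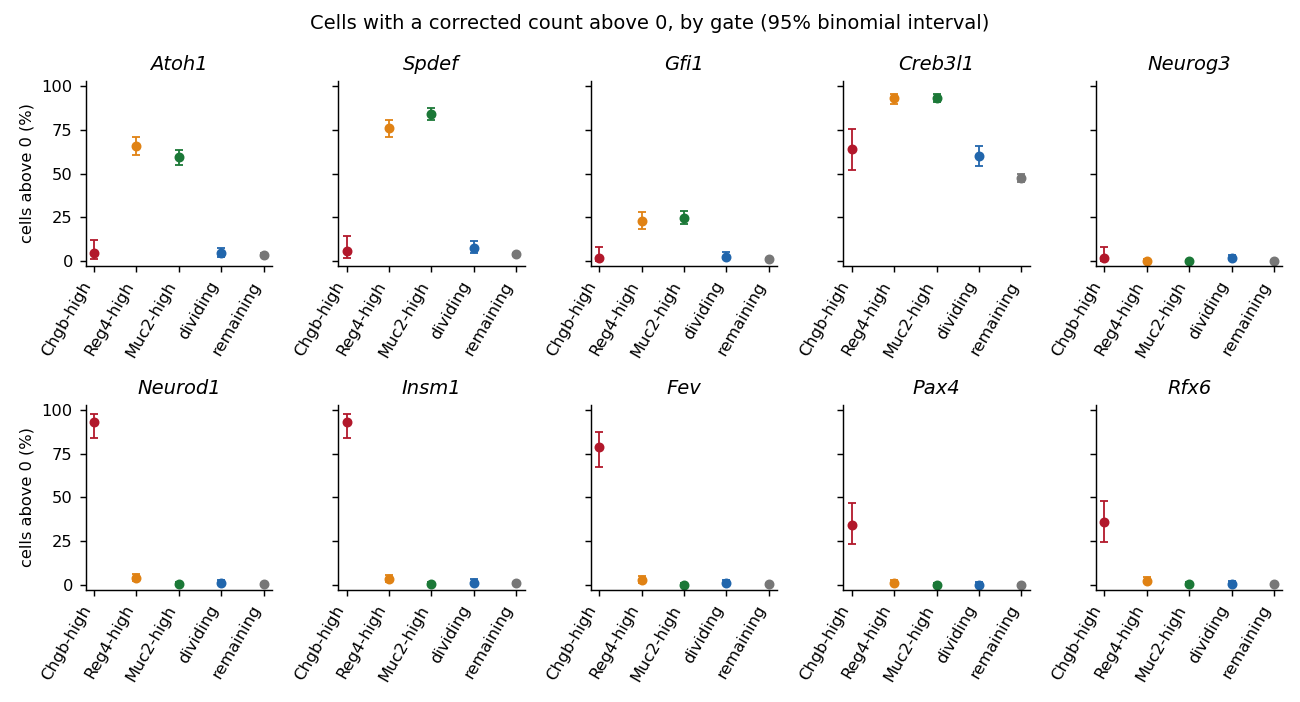
Percent of cells with a corrected count above 0 (vertical axis) in each of the 5 gates (horizontal axis), 1 panel a gene, with points for the share and bars for its exact 95% binomial interval over cells of 1 library. Atoh1, Spdef, Gfi1 and Creb3l1 are most frequent in the Reg4-high and Muc2-high cells, and Neurod1, Insm1, Fev, Pax4 and Rfx6 in the Chgb-high cells, where Neurod1 reaches 92.9%.

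Counted at 2-fold or more of the group means (a pseudocount of 0.01 added to both, genes with a sum of at least 20 over epithelial cells, which all 10 members passed), 6 members were higher in the Chgb-high cells than in all other epithelial cells. They were Neurod1, Insm1, Fev, Pax4, Rfx6 and Neurog3, and the log2 ratios of Neurod1, Insm1, Fev and Rfx6 were 7.09, 6.72, 6.60 and 5.09. Pax4 had 40 corrected counts in the 70 Chgb-high cells and 3 in the other 2938. Of all 14348 genes tested 23.7% passed in that direction. Atoh1, Spdef and Gfi1 were lower, the first 2 at -1.75 and -3.01, where 15.4% of all genes passed, and Creb3l1 was at -0.50. With 70 cells in the group, ratios of thinly counted genes are weak evidence: Gfi1 rested on 1 corrected count there, Spdef on 8 and Atoh1 on 13. The log2 ratio of Neurog3, 2.77, rested on 14 counts in 1 cell and was -1.62 without that cell. Where at least 20 counts were required in the smaller group at the level of the higher one, a choice made after seeing the data, Gfi1 and Neurog3 could not be judged, the other 5 endocrine factors stayed higher, and 33.1% of the 6467 genes left passed.

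In the Muc2-high and Reg4-high cells together, against the dividing and remaining cells, 5 members were at least 2-fold higher, with log2 ratios of 5.19 for Spdef, 4.55 for Atoh1, 3.48 for Gfi1, 2.29 for Creb3l1 and 1.14 for Fev, beside 8.93% of all genes. Neurog3 was counted as lower, where 9.13% of all genes passed, with 0 counts in these 803 cells against 61 in the other 2135, of which 1 cell held 28 and another 20. Its call was lost at a pseudocount of 0.1 and by the share of cells above 0. The call of Fev rested on 8 cells, all Reg4-high, and was lost under several alternatives. Between the gates, Spdef was lower in the Reg4-high than in the Muc2-high cells (log2 ratio -1.45, where 5.46% of all genes passed), whereas Atoh1 (0.46), Gfi1 (-0.20) and Creb3l1 (-0.77) stayed under 2-fold. By the share of cells above 0 the ratio of Spdef was -0.15. The mean of Muc2 was 64.2 in the Reg4-high and 288 in the Muc2-high cells. Within the Reg4-high gate the mean of Spdef was 1.40 at Muc2 of 10 to 99 and 3.11 at 100 or more. The part of the Muc2 level in the difference between the gates was not tested. Neurod1, Insm1, Fev and Rfx6 were higher in the Reg4-high cells (6.18% of all genes passed).

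The endocrine factors in the Reg4-high gate came from few cells. In a split chosen after seeing the data, 12 of the 317 Reg4-high cells had a sum of at least 50 over Insl5, Pyy and Gcg, hormones of L cells. Neurod1 was above 0 in 91.7% of these 12 (61.5 to 99.8), Insm1 in 83.3%, Fev in 66.7%, Rfx6 in 6 cells and Atoh1 in 16.7%. In the other 305 Reg4-high cells Neurod1, Insm1, Fev and Rfx6 were each above 0 in 0 cells, which allows a share of up to 0.984%, and Pax4 was above 0 in 1 cell. In the same 305 cells Atoh1 was above 0 in 67.9% and Spdef in 78.7%. The 34 of them with Muc2 under 10 still had Atoh1 in 58.8% (40.7 to 75.4) and Spdef in 73.5% (55.6 to 87.1).

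Across all epithelial cells, 62 had Tph1, the enzyme that makes serotonin in enterochromaffin cells, at 5 or more, and 22 others had the L cell hormones at 50 or more, while no cell had both. Neurod1 was above 0 in 93.5% of the Tph1 cells (84.3 to 98.2) and 81.8% of the L hormone cells (59.7 to 94.8), with means of 6.74 and 3.55. Insm1 was above 0 in 91.9% (82.2 to 97.3) and 72.7% (49.8 to 89.3), with means of 4.90 and 4.18, and Fev in 75.8% and 72.7%, with means of 2.00 and 1.73. Pax4 was above 0 in 32.3% of the Tph1 cells (20.9 to 45.3) and 13.6% of the L hormone cells (2.91 to 34.9), and Rfx6 in 30.6% (19.6 to 43.7) and 40.9% (20.7 to 63.6). The difference between the 2 kinds of cells was not tested, since cells of 1 library are not replicates. Of the 62 Tph1 cells 61 were Chgb-high, but of the 22 L hormone cells only 3 were, so the gate on Chgb holds mostly Tph1 cells. Reg4 was at 10 or more in 13 of the Tph1 cells and in 15 of the L hormone cells.

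**Figure D2:**
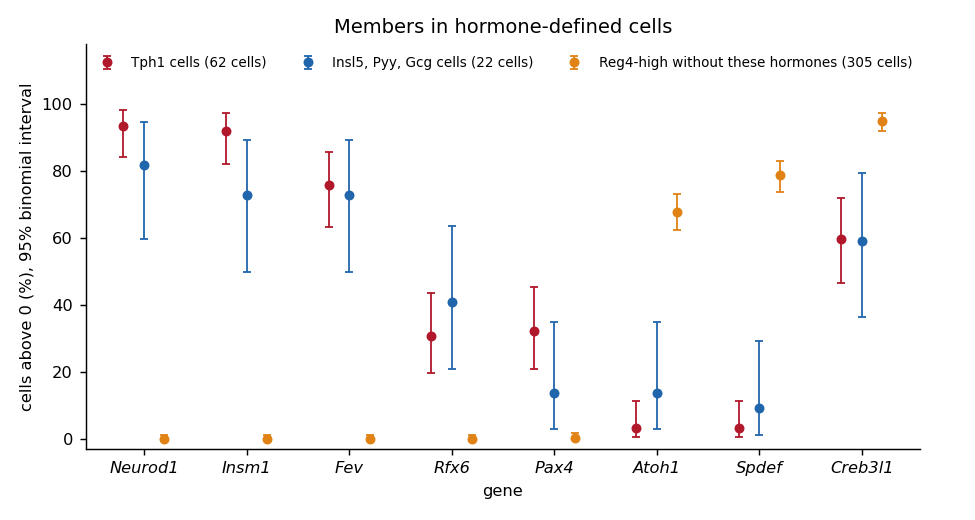
Percent of cells with a corrected count above 0 (vertical axis) for 8 genes (horizontal axis) in 62 Tph1 cells, 22 Insl5, Pyy and Gcg cells and 305 Reg4-high cells without these hormones, with exact 95% binomial intervals. Neurod1, Insm1 and Fev are frequent in both kinds of hormone cells, and the 305 Reg4-high cells have Atoh1 (67.9%) and Spdef (78.7%) instead.

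Over all epithelial cells, endocrine factors were often above 0 in the same cell. Insm1 was above 0 in 87.4% of the 87 epithelial cells with Neurod1 and in 0.582% of the 2921 without it. Every Chgb-high cell had at least 1 of Neurod1, Insm1, Fev, Pax4 and Rfx6 above 0, 58 of the 70 had at least 3 and 10 had all 5. Neurod1 and Insm1 were both above 0 in 61 cells. Pax4 and Rfx6, each found in about as many cells, were both above 0 in 11. Within the Chgb-high gate, Insm1 was above 0 in 93.8% of the 65 cells with Neurod1 and in 80% of the 5 without it. Rfx6 was above 0 in 45.8% of the 24 cells with Pax4 and in 30.4% of the 46 without it. Each of Neurod1 and Insm1 was in 92.9% of the gate, so most of its cells had both whatever their relation. A link of these factors within the gate was not tested. Cells with a low Chgb value of 1 to 9 (130 cells) had Neurod1 in 13.1% and Insm1 in 10.8%, against 0.178% and 0.499% of the 2808 cells without Chgb. Between Chgb of 10 to 99 (15 cells) and 100 or more (55 cells) the share with Neurod1 was 93.3% and 92.7%.

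Among the mucus-making cells, Spdef was above 0 in 451 of the 497 cells with Atoh1 (90.7%) and in 65.4% of the 306 without it. Gfi1 was above 0 in 33.8% of the cells with Atoh1 and 8.17% of those without. These shares describe co-detection, and the part of depth per cell in them was not tested.

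The factors differed in how they followed the Muc2 level, over cells binned by Muc2 with the Chgb-high cells left out. Atoh1 had a mean of 0.0343 in 1602 cells without Muc2, 0.271 at 1 to 9, 1.60 at 10 to 29, 2.01 at 30 to 99, 2.19 from 100 to under 300 and 2.26 in the 197 cells at 300 or more. Spdef had means of 0.0381, 0.235, 0.988, 1.73, 4.11 and 6.25 over the same bins. With the gates pooled, the mean of Atoh1 thus changed little from Muc2 of 30 upward while that of Spdef went on rising. The share of cells with Atoh1 was 58.0%, 58.8% (51.9 to 65.4) and 74.6% (67.9 to 80.5) in the top 3 bins, so it was higher in the last. Within the Reg4-high gate the mean of Atoh1 was 1.98 in 44 cells with Muc2 under 10, 2.46 in 220 cells at 10 to 99 and 3.58 in 53 cells at 100 or more, and its share was 45.5%, 65.5% and 84.9%. Creb3l1 climbed as Spdef did at the upper end, with means of 3.47, 5.33 and 6.48 in the top 3 bins, and Gfi1 had 0.254, 0.236 and 0.386. After each cell was thinned to 6000 counts, Atoh1 had means of 1.23, 1.36 and 1.31 and Spdef of 1.11, 2.47 and 3.76 in these 3 bins. Median genes per cell were 3036.5, 3283 and 3387 there, and the part of depth in the pattern was not tested further. The bins differ in gate too, with 138 of 264 cells Reg4-high at Muc2 of 30 to 99 and 10 of 197 at 300 or more. The level mean of Atoh1 over the pooled bins therefore does not show that it is level within a gate, and in the Reg4-high gate it rose.

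**Figure D3:**
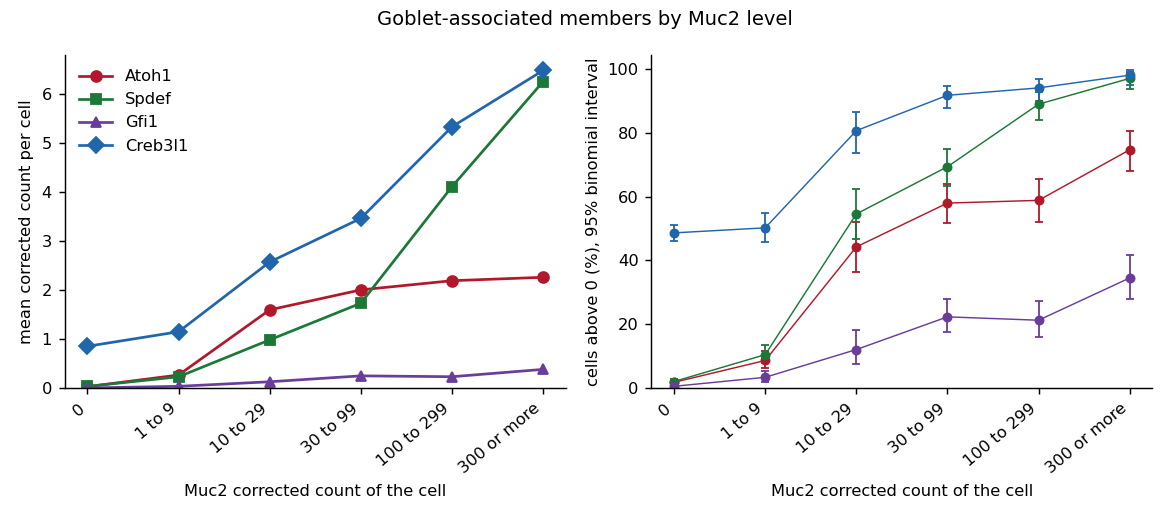
Mean corrected count per cell (left) and percent of cells above 0 with exact 95% binomial intervals (right) of Atoh1, Spdef, Gfi1 and Creb3l1, over 6 bins of the Muc2 corrected count of the cell (horizontal axis), Chgb-high cells left out. In the top 3 bins, with gates pooled, the mean of Atoh1 stays between 2.01 and 2.26 while its share goes from 58.0% to 74.6%. The mean of Spdef goes from 1.73 to 6.25. The bins differ in their share of Reg4-high cells, and within that gate the mean of Atoh1 rose with Muc2.

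Spdef had the sequence below in the 250 bases before its start, and that of Neurog3, the endocrine factor set apart by its rarity, follows. Both are from RefSeq on GRCm38.p6, whose promoter table matched 7 of the 10 genes (Atoh1, Spdef, Gfi1, Neurod1, Fev, Rfx6 and Neurog3, and not Insm1, Pax4 or Creb3l1). Capitals mark matches on either strand to TGGGAA, the core bound by Rbpj in Notch signaling, or to the E-box CAGCTG; the E-box CAGATG was searched too, and the motifs do not overlap here.
Spdef, chr17:27728952-27729201, minus strand: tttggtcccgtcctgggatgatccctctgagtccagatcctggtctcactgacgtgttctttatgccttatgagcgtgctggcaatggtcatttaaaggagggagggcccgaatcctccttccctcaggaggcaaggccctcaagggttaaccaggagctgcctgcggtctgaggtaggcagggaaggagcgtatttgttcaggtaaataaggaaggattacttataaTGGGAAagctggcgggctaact
Neurog3, chr10:62132840-62133089, plus strand: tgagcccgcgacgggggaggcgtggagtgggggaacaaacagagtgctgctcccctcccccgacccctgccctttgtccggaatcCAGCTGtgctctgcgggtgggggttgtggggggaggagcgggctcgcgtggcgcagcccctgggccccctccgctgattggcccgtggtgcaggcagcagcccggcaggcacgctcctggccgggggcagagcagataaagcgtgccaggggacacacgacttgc
Spdef held TGGGAA 22 bases before the start and Fev 123 bases before it, and Neurog3 held CAGCTG 165 bases before it. The windows of Atoh1, Gfi1, Neurod1 and Rfx6 held none of the 3 motifs. Of 32851 windows of this length 21.6% held TGGGAA, 13.0% CAGCTG and 14.4% CAGATG, and a match is a description of letters only.

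Neurog3 (chr10:62133090-62134763, plus strand) was above 0 in 8 epithelial cells (0.266%, 0.115 to 0.523), with values of 28, 20, 14, 6, 4, 1, 1 and 1. Of these cells 4 were in the dividing gate (1.36%, 0.371 to 3.44), 3 in the remaining gate and 1 was Chgb-high, while 0 of 317 Reg4-high cells had it, which allows up to 0.946%. The 4 dividing cells had summed division genes of 58 to 86, Spdef of 1 or 2 and Creb3l1 of 3 to 7, with Muc2 and Atoh1 at 0, and 1 of them had Insm1 at 2. The highest cell, in the remaining gate, had Insm1 at 20 and Rfx6 at 1 and no Neurod1, Fev or Chgb. The Chgb-high cell had Neurod1 at 12, Insm1 at 13, Fev at 5, Pax4 at 4 and Rfx6 at 3, with Chgb at its minimum of 10. Atoh1 was at 0 in all 8. Cells with Neurog3 numbered 2 of 4487 below the Epcam minimum.

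Between the dividing and remaining cells, Neurog3 was the only member at least 2-fold higher (log2 ratio 2.13, where 8.89% of all genes passed), and without its highest cell the ratio was 0.85. Atoh1 and Spdef were at 0.84 and 0.85, and at -0.10 and 0.38 once cells with at least 10% mitochondrial counts were left out, which were 60.7% of the remaining and 29.8% of the dividing cells. Other alternatives brought them past 2-fold, Atoh1 at a division sum of at least 5 (1.25) or at least 20 (1.27) and at a Reg4 minimum of 5 (1.00), and Spdef at a Muc2 minimum of 60 (1.20). In the 12 dividing cells with Muc2 of at least 10, Atoh1 was above 0 in 41.7% (15.2 to 72.3) and Spdef in 58.3% (27.7 to 84.8), against 2.83% and 5.30% of the 283 dividing cells with less Muc2. The remaining gate had the same split. There Atoh1 and Spdef were above 0 in 25.4% and 32.4% of 71 cells with Muc2 of at least 10, against 2.54% and 2.60% of the 1769 with less. Within the Muc2-high gate 34 cells had a division sum of at least 10. Their Spdef mean was 3.03 against 4.67 in the other 452, beside Muc2 means of 120 and 301, and their Atoh1 mean was 1.97 against 1.86.

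The related transcription factors on the list used here numbered 25, of which 22 could be tested. In the Chgb-high cells 14 were at least 2-fold higher, where 23.7% of all genes passed. The median log2 ratio was 2.28 against 0.24 over all genes. Among these 14 were Nkx2-2, an endocrine homeobox factor with a mean of 1.96 in the Chgb-high and at most 0.0694 in the other gates, Lmx1a (2.01 and at most 0.00412) and Pax6 (0.514 and at most 0.0726). In the Muc2-high and Reg4-high cells together 9 of 22 were higher, beside 8.93% of all genes. Among them were Foxa3, with means of 2.59 in the Muc2-high, 2.52 in the Reg4-high and 0.339 in the dividing cells, and Xbp1, a regulator of the secretory pathway, with 4.26, 3.81 and 0.675. The calls of Nkx2-2 (log2 ratio 1.55), Pax6 (1.07) and Etv1 (1.62) rested on few cells. Nkx2-2 was above 0 in 3.47% of the Reg4-high and 4.12% of the Muc2-high cells. Etv1 was above 0 in 4.73% and 1.65% of them, with means of 0.293 and 0.0206. Pax6 was above 0 in 2.84% of the Reg4-high cells and had a mean of 0 in the Muc2-high cells. Sox4 was lower, at 0.352 in the Muc2-high and 0.543 in the Reg4-high cells against 2.65 in the dividing and 1.72 in the remaining cells. It had 4.94 in the Chgb-high cells.

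Of 19 Notch pathway genes tested, 3 were at least 2-fold higher and 4 lower in the mucus-making gates than in the dividing and remaining cells, beside 8.93% and 9.13% of all genes. The ligand genes Dll1 and Dll4 were highest in the Reg4-high cells, at 0.798 and 0.675, against 0.181 and 0.263 in the Muc2-high and 0.0915 and 0.0576 in the dividing cells. The receptor gene Notch1 and the target Nrarp were lower. Notch1 was at 0.0599 in the Reg4-high and 0.0370 in the Muc2-high cells, against 0.512 in the dividing and 0.251 in the remaining cells. The target Hes1 stayed under 2-fold (log2 ratio -0.86). It had 0.789 in the Reg4-high and 1.07 in the Muc2-high cells, against 2.09 in the dividing, 1.70 in the remaining and 0.500 in the Chgb-high cells. All 13 goblet products passed 2-fold in the mucus-making cells, beside 8.93% of all genes. In the Chgb-high cells 16 of 19 endocrine products passed, beside 23.7% of all genes. However, 16 of 19 endocrine products also passed 2-fold in the Muc2-high and Reg4-high cells together over the dividing and remaining cells (median log2 ratio 2.00). Tph1 was lower there. Insl5, Pyy and Gcg were among the 16, with means of 27.5, 54.8 and 34.5 in the Reg4-high cells. Their means in the Muc2-high cells were 0.0370, 0.152 and 0.136, below the 1.72, 5.24 and 1.74 of the remaining cells. The Reg4-high gate includes the 12 cells with these hormones described above. The gates were set on genes of the same kind, so the counts of products past 2-fold are not independent of them.

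The genes with the most similar pattern over the 3008 epithelial cells, by Pearson's r of the natural log values, were Ramp1 (0.687), Spink4 (0.675) and Hepacam2 (0.664) for Atoh1, Slc12a8 (0.834) and Muc2 (0.811) for Spdef, and Agr2 (0.751) for Creb3l1. For Neurod1 they were Chga (0.888) and Chgb (0.853), for Insm1 Chga (0.830), for Fev Rimbp2 (0.786), for Rfx6 Baiap3 (0.597) and for Pax4 Insm1 (0.588). Gfi1 was most like Atoh1 (0.465). All points come from 1 library and share its depth correction. Neurog3 had too few cells for this.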

How the data were processed

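Droplet 3' libraries were made from wild-type colon (V3 kit) and from GFP-positive mesenchymal cells (V2 kit). Per the labels and methods, the authors aligned reads to mm10 with Cell Ranger and processed counts in R 3.6.2 with Seurat 3.1 and SCTransform. The deposited table called raw holds whole numbers with totals of 6120 to 16389 per wild-type cell (median 8972), and is treated as a score, since the authors corrected these counts to a common depth. The second deposited table holds the natural log of 1 plus the same values. Because the values are corrected, no count model was run.

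Group means, their log2 ratio (pseudocount 0.01), shares of cells above 0 with exact Clopper-Pearson 95% intervals and, for 0 cells, a limit of 3 cells of the total were computed with Python 3.11.15, numpy 2.4.6 and scipy 1.17.1. A gene was counted past 2-fold among genes with a sum of at least 20. The ratios were tested on simulated data with planted folds larger than 2-fold and Poisson counts. These folds were recovered where at least 20 counts were expected in the group with the lower expected count, and often not below that. The simulation did not test calls near 2-fold or high counts in single cells. Its count of 20 also differs from that of the stricter filter above, which uses the level of the higher group. Named genes were the 10 members, genes of the lists (related transcription factors, the Notch pathway, goblet and enteroendocrine products) as counts with examples, and the genes most correlated with each member. Members and lists were chosen with earlier results of these data known. The split by hormones and 3 of the alternatives were chosen after seeing the data. Scrublet in scanpy 1.11.5 marked 7 of 7495 cells, too few to have worked, so doublets were not removed. Alternatives varied the gates, pseudocount, filter, fold, depth and left-out cells. Positions are from GENCODE on GRCm38.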

Additional observations from a re-analysis of the deposited data

Results flagged for a closer look

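The GFP-positive mesenchymal library, outside the comparisons above, listed 2 of the 10 genes. Creb3l1 was above 0 in 891 of 4409 cells (20.2%, exact 95% interval 19.0 to 21.4) with a mean corrected count of 0.231. Spdef was above 0 in 6 cells (0.136%, 0.0500 to 0.296). These values are given because they come from cells sorted as mesenchymal and the shares lie above the 0.0680% that a count of 0 would allow. The interval of Spdef includes that limit, so its 6 cells do not clearly exceed it. Totals per cell were 2314 to 4432 there, below those of the wild-type library, and levels were not compared between the tables, which were corrected separately.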

How the results depend on the processing

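Over 23 alternatives, the 4 counts of members past 2-fold were within 1.5 times the reported count in 83 cases and outside it in 9. The count of members higher in dividing cells (1) was 2 at a Muc2 minimum of 60 (with Spdef), at a Reg4 minimum of 5 and at a division sum of at least 5 or of at least 20 (each with Atoh1), and 0 at a pseudocount of 0.1 and without the highest cell of each gene. The count for the Muc2-high and Reg4-high cells (5) was 3 by the share of cells above 0, and that between Reg4-high and Muc2-high cells (5) was 2 at a pseudocount of 0.1 and 3 at 3-fold. The log2 ratio of Neurog3 in Chgb-high cells (2.77) reversed to -1.83 at a Chgb minimum of 20 and to -1.62 without its highest cell. Of 40 log2 ratios of single members, 22 kept their side of the fold in every alternative. A change of direction was counted only for ratios past 2-fold, so smaller ratios among the 22 could change sign. Fev between dividing and remaining cells, for example, went from -0.0243 to 0.0243 at an Epcam minimum of 3. Fev in the Muc2-high and Reg4-high cells fell to between 0.25 and 0.94 and Rfx6 between Reg4-high and Muc2-high cells to between 0.23 and 0.89 in the alternatives that lost these calls by value. The shares of all genes past 2-fold higher also moved, in Chgb-high cells from 23.7% to 13.4% at a pseudocount of 0.1 and to 11.5% at 3-fold. The cause of these changes was not tested. No paired analysis was possible because each group is cells of 1 library. The 3 pooled mice in 1 library, 70 Chgb-high cells and depth per cell limit what could be detected.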
